A study of Mus musculus with 8 samples.

Results

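The TNF superfamily, the ligands related to tumour necrosis factor and the receptors that bind them, was followed across cells sorted by protease activity from tumor-bearing mouse lungs. Its members were taken by name, as every gene in the count table whose symbol begins with Tnfsf or Tnfrsf and a digit, together with Tnf, Lta, Ltb, Ltbr, Fas, Fasl, Cd40, Cd40lg, Cd27, Cd70 and Eda2r. This gave 43 of 27179 genes: 17 ligands, 25 receptors and Tnfsf13os, a non-coding RNA that was matched by its symbol alone. Of the receptors, 5 carry a death domain, 16 signal by binding TRAF adaptors, and 4 are decoys or orphans. The names used no measured value, but the family was picked with the QZ1-hi against QZ1-lo result of these libraries known, so counts over its members are given as a description.

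All 8 libraries came from the lungs of female C57BL/6 mice (C57BL/6J in the study's methods) carrying Eml4-Alk tumors, aged 18 to 22 weeks, at 11 to 12 weeks after tumor induction. An adenovirus placed in the airway delivers Cas9 and guide RNAs that rearrange Eml4 and Alk in the cells it infects, so the lungs hold both altered and unaltered cells. Mice received 4.5 nmol of QZ1-(PEG2K) into a vein, a quenched peptide probe that releases a Cy5-labelled, cell-binding fragment when a protease cuts it, and their lungs were removed after 2 h. From the dissociated lungs, viable cells lacking CD45 and CD11b, the surface markers of leukocytes and of myeloid cells, were then sorted into those with high probe signal (QZ1-hi, condition QZ+, 4 libraries) and those with low signal (QZ1-lo, condition QZ-, 4 libraries), with at least 100000 cells in each. The groups shared genotype, strain, age and probe, and healthy lung was not analysed here. Libraries are numbered within a group in accession order, so a number does not pair them. The labels call the 4 libraries of a group biological replicates without naming the mouse each came from.

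TNF ligands are trimers made as membrane proteins, some of which are cut loose by proteases, and they act by clustering their receptors. Death domain receptors such as Fas recruit FADD and caspase-8 to trigger apoptosis, or, like the TNF receptor Tnfrsf1a, recruit TRADD and RIPK1 to activate NF-kB. Receptors without a death domain bind TRAF proteins and drive NF-kB and stress kinase signaling, while decoy receptors bind ligand and do not signal for death. In the lung, epithelium, endothelium, fibroblasts and leukocytes each use members of the family.

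Total counts ran from 18380918 to 26847938 per library. Mitochondrial and ribosomal RNA took 43.7% to 65.6% of counts in QZ1-hi and 34.0% to 53.2% in QZ1-lo, and the scaling factors ran from 0.660 in QZ1-hi library 4 to 1.35 in QZ1-lo library 1. All 10 endothelial markers and 8 of 10 mesenchymal markers were called higher in QZ1-hi, among them Cdh5, Pecam1 and Pdgfra with log2 fold changes of 3.54, 3.27 and 3.38. Summed endothelial marker CPM ran from 969 to 2270 in QZ1-hi and from 84.4 to 308 in QZ1-lo, and summed mesenchymal marker CPM from 1661 to 3219 and from 43.5 to 377. Airway epithelial markers were lower for 5 of 6 tested, with sums of 290.2 to 869 in QZ1-hi and 1322 to 3718 in QZ1-lo, and Epcam fell by 1.17 on the log2 scale. Alveolar markers were mixed, with 1 higher (Sftpc) and 5 lower (Epcam, Hopx, Ager, Rtkn2 and Nkx2-1) of 10. Leukocyte transcripts remained in both groups despite the gate: Ptprc, which encodes CD45, lay between 71.4 and 222 CPM in QZ1-hi and between 93.4 and 161 CPM in QZ1-lo. Summed myeloid marker CPM overlapped, at 3368 to 7235 against 2452 to 4812, and was highest in library 4 of each group. In these bulk libraries, fewer cells of a type and less RNA per cell cannot be told apart.

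Values below are CPM, read counts scaled by library size and TMM factor, and a gene was called when its edgeR quasi-likelihood adjusted p, taken over all 15583 genes tested, was under 0.05. Among the 43 members 36 had enough counts to be tested, and 4 were called higher and 6 lower in QZ1-hi. Higher were the death ligand Tnfsf10 (TRAIL), its relative Tnfsf12 (TWEAK), and the death receptors Fas and Tnfrsf1a. Lower were Tnf and Fasl, the ligands of those receptors, with the TWEAK receptor Tnfrsf12a, the costimulatory receptor Tnfrsf9 (4-1BB), the death domain receptor Tnfrsf21 (DR6) and the TRAIL decoy Tnfrsf23. Of all genes tested, 18.1% were called, 9.88% higher and 8.21% lower, against 27.8% of the tested members. The median log2 fold change was 0.16 over the tested members and 0.02 over all genes tested. With scaling by library size alone, which moves the median of all genes to -0.44, the split among members became 1 higher and 7 lower, and Tnfsf10 was the member still called higher. The ranges of both groups were apart for 10 of the 36 tested members (27.8%), the same 10 that were called. Of all genes tested, 22.6% showed this separation, 11.9% higher and 10.7% lower. For genes already called it adds no support of its own.

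**Figure D1:**
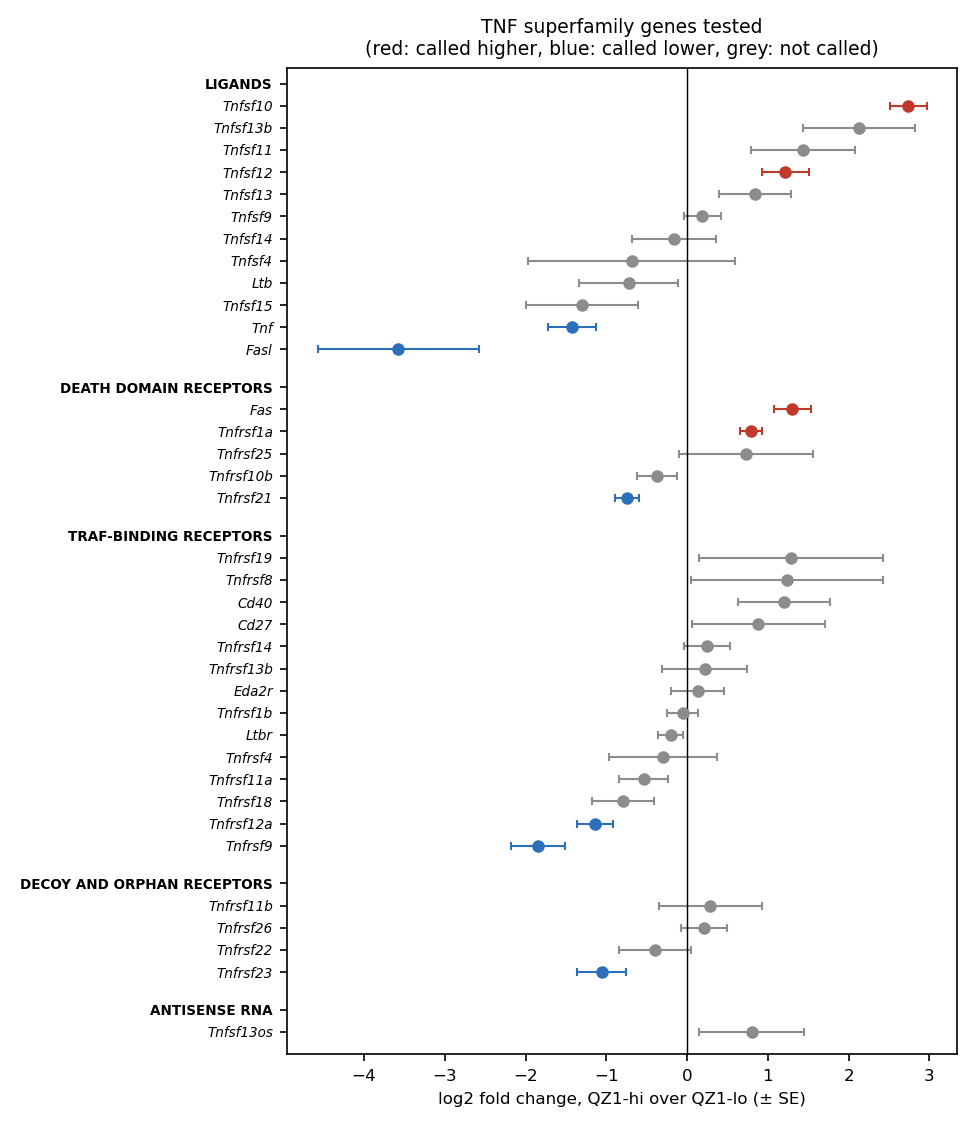
Log2 fold change of the 36 tested TNF superfamily genes, QZ1-hi over QZ1-lo (horizontal axis), with 1 gene a line, grouped by role. Points are edgeR estimates from 4 libraries a group and bars are ± SE. Tnfsf10 lies farthest right at 2.74, and Fasl farthest left at -3.58 with the widest bar among the called genes.

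Upstream sequence is printed for a pair of called members that moved in opposite directions, Tnfsf10 and Tnfrsf9, since inducible genes of the family are known for NF-kB sites near their starts. The windows searched were RefSeq's (GRCm38.p6), 300 bases each, of which 250 lie before the start and 50 after it, and the letters sought, on either strand, were GGGA and CC with any 4 bases between them, a common form of the NF-kB site. The Tnfrsf9 line shows chr4:150927947-150927976 on the plus strand, the match in capitals with 10 bases on each side. It lies 42 bases before the second RefSeq start of the gene, inside the untranslated first exon of 1 GENCODE M21 transcript of Tnfrsf9 and in an intron of Camta1 on the other strand. The Tnfsf10 line shows chr3:27316827-27317027 on the plus strand, the 201 bases of its window that precede the gene's first annotated exon, which hold no match and so no capitals.
Tnfrsf9: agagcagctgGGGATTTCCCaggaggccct
Tnfsf10: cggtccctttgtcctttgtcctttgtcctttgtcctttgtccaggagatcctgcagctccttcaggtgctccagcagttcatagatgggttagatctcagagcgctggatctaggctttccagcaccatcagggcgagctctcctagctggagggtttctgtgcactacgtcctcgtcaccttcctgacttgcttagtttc

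The Tnfrsf9 match reads on both strands. Of 36 windows for 32 members, 10 held the letters (27.8%), compared with 20.7% of all 32851 windows. Among 10 windows of 9 called members, 2 held them, the Tnfrsf9 window above and that of Tnf, where the match lay just downstream of the start. A match of letters is a description and does not show that a factor binds, and 11 members had no window in the table.

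The called members were spread over several chromosomes (GENCODE M21, GRCm38). Tnf (chr17:35199381-35202007) lies between Ltb and Lta, of which the first was not called and the second had too few reads to test. Tnfrsf23 (chr7:143665809-143685872) lies beside Tnfrsf22 and Tnfrsf26, and Tnfsf12 (chr11:69686250-69695849) beside Tnfsf13, and none of these neighbours was called. Fasl (chr1:161780689-161788495), Tnfrsf12a (chr17:23675445-23677468), Tnfrsf21 (chr17:43016555-43089189), Fas (chr19:34290666-34327772), Tnfsf10 (chr3:27317028-27342427), Tnfrsf9 (chr4:150914562-150946102) and Tnfrsf1a (chr6:125349362-125362484) make up the rest. Chromosome 4 holds 9 members, and of these Tnfrsf9 alone was called.

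Among the ligands, Tnfsf10 had the smallest adjusted p. TRAIL, its product, binds death receptors and can start apoptosis in transformed cells. The QZ1-hi libraries held 59.7, 36.7, 56.6 and 30.2 CPM of Tnfsf10, and the QZ1-lo libraries 6.92, 6.39, 7.71 and 6.43 CPM. Every QZ1-hi library stood well above the QZ1-lo libraries, which lay close together, while QZ1-hi libraries 1 and 3 were higher than 2 and 4. QZ1-hi libraries 1 and 3 also held the highest endothelial marker sums, at 1674 and 2270 CPM against 1013 and 969 CPM, and the part of those cells in the Tnfsf10 level was not tested. QZ1-hi averaged 45.8 ± 14.6 CPM (SD, n = 4), and QZ1-lo averaged 6.86 ± 0.615 CPM (SD, n = 4), a 6.67-fold difference (log2 fold change 2.74 ± 0.23 SE, edgeR adjusted p = 0.000144).

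Tnfsf12 encodes TWEAK, a cytokine that acts on endothelial cells, fibroblasts and epithelium through Tnfrsf12a. Its level was 8.43, 7.66, 11.7 and 7.33 CPM in QZ1-hi and 4.35, 4.39, 2.13 and 4.22 CPM in QZ1-lo. All QZ1-hi libraries were higher, library 3 the most, and QZ1-lo library 3 stood below the others of its group. The log2 fold change was 1.22 ± 0.29 SE (edgeR adjusted p = 0.0127), and without QZ1-hi library 3 the call was lost at 1.01 (adjusted p = 0.0554). Of the gene's 50-base stretches, 46.8% also occur in Tnfsfm13, a read-through model that joins it to Tnfsf13, so its reads could be split between the models.

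Tnf, the founding cytokine of the family, ran the other way. QZ1-hi libraries held 3.47, 4.45, 3.01 and 4.23 CPM, and QZ1-lo libraries 7.75, 10.8, 15.5 and 6.59 CPM. The QZ1-hi values were close together and all lower, while QZ1-lo library 3 was the highest. Tnf fell by 1.42 ± 0.30 SE on the log2 scale (edgeR adjusted p = 0.00655). Myeloid cells are a known source of Tnf. Of 10 myeloid markers, 7 had a log2 fold change above 0 and 3 below, with a median of 0.36. Those below were Csf3r, with S100a9 at -0.35 and S100a8 at -0.18, neither of these 2 called (edgeR adjusted p = 0.406 and 0.738). The 1 called was Csf3r, a neutrophil receptor that went against most of the list and was singled out here for its values. It was at 31.4 to 59.2 CPM in QZ1-hi and 59.0 to 89.8 CPM in QZ1-lo (log2 fold change -0.96 ± 0.21 SE, edgeR adjusted p = 0.00793). QZ1-lo library 3, the highest for Tnf, was also the highest for Csf3r at 89.8 CPM, with QZ1-lo library 2 close behind at 89.1 CPM. The summed myeloid markers of QZ1-lo library 3, mostly Lyz2, were the lowest of all at 2452 CPM. The part of these cells in the Tnf level was not tested.

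Fasl, the ligand of Fas and a product of activated T and NK cells, was near the limit of detection. The libraries held 4, 0, 2 and 0 reads in QZ1-hi and 19, 43, 18 and 20 reads in QZ1-lo, or 6 against 100 in all. Every QZ1-lo library was higher, and the gene passed the filter on low counts through that group alone. Its fitted log2 fold change of -3.58 ± 1.00 SE (edgeR adjusted p = 0.0285) depends on the prior count, and the call was lost without QZ1-hi library 2, 3 or 4 and without QZ1-lo library 2 or 4. Summed T and NK cell markers were 15.4 to 17.4 CPM in QZ1-hi and 15.9 to 29.4 CPM in QZ1-lo. Of 8 tested, 7 had a log2 fold change below 0 and 1 above, with a median of -0.98, and 1 was called lower. Their part in the Fasl count was not tested.

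The other 8 tested ligands were not called. Tnfsf13b (BAFF), which keeps B cells alive, was the nearest, with 2.97, 5.83, 4.74 and 1.07 CPM in QZ1-hi and 0.149, 1.06, 1.52 and 0.614 CPM in QZ1-lo. The groups overlapped, since QZ1-hi library 4 lay below QZ1-lo library 3. Its log2 fold change was 2.13 ± 0.69 SE (edgeR adjusted p = 0.0555). It was called in 6 of 15 alternatives, among them DESeq2 at 2.13 (adjusted p = 0.0101) and without QZ1-hi library 4 at 2.48 (adjusted p = 0.0260). B cell markers, summed, stayed between 1.72 and 6.65 CPM in all libraries and none of 4 was called. For the bone-resorption ligand Tnfsf11 (RANKL) the log2 fold change was 1.44 ± 0.64 SE and for the B cell cytokine Tnfsf13 (APRIL) 0.84 ± 0.45 SE, with adjusted p of 0.165 and 0.250. At the other end were Tnfsf15, a ligand made by endothelial and myeloid cells, at -1.30 ± 0.69 SE (adjusted p = 0.248) and Ltb, the membrane anchor of lymphotoxin, at -0.72 ± 0.61 SE (adjusted p = 0.502).

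Tnfsf9, the 4-1BB ligand, was not called. It held 15.8, 11.9, 16.8 and 9.71 CPM in QZ1-hi and 12.6, 11.6, 14.9 and 8.43 CPM in QZ1-lo, ranges that overlapped almost entirely. Its log2 fold change was 0.19 ± 0.23 SE (edgeR adjusted p = 0.665). Tnfsf14 and Tnfsf4, T cell costimulatory ligands, were at or under 1.85 and 0.847 CPM in every library. Summed over all 17 ligands, CPM ran from 63.9 to 100.2 in QZ1-hi and from 36.6 to 49.2 in QZ1-lo. Tnfsf10 carried that gap, since the other 16 ligands summed to 33.8 to 43.6 CPM in QZ1-hi and 30.2 to 41.5 CPM in QZ1-lo, which overlapped.

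**Figure D2:**
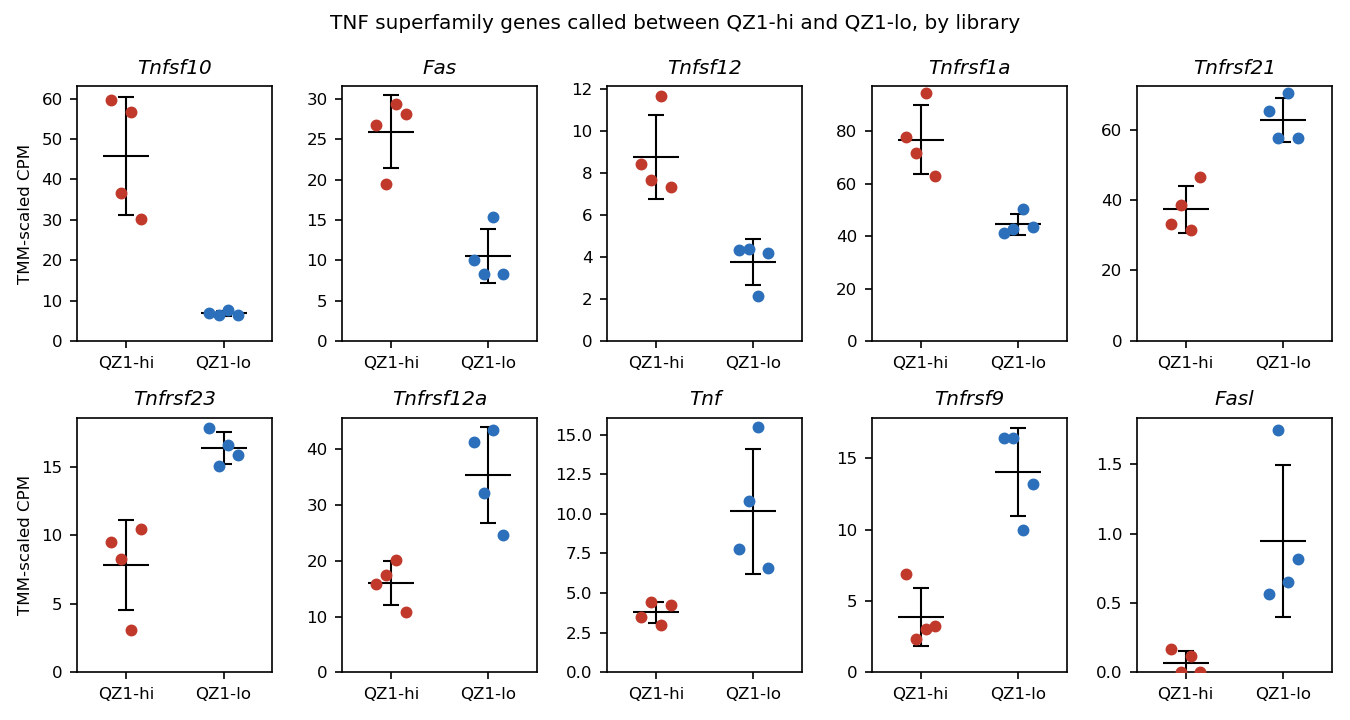
TMM-scaled CPM (vertical axis, from 0) of the 10 called genes in each of 4 QZ1-hi libraries (red) and 4 QZ1-lo libraries (blue). Horizontal bars are group means and error bars are SD. The groups do not overlap for any of the 10, and the gap is widest for Tnfsf10, at 30.2 CPM and above against 7.71 CPM and below.

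Of the 5 death domain receptors, 2 were higher and 1 lower in QZ1-hi, against 9.88% and 8.21% of all genes tested. With 5 genes, these shares cannot be usefully compared. Fas, which starts apoptosis through FADD, held 26.8, 19.4, 29.4 and 28.2 CPM in QZ1-hi and 10.05, 8.26, 15.3 and 8.35 CPM in QZ1-lo. The lowest QZ1-hi library still lay above the highest QZ1-lo library, which was library 3. The difference was 2.47-fold (log2 fold change 1.30 ± 0.23 SE, edgeR adjusted p = 0.00235). With library size alone it was 0.83 and not called (adjusted p = 0.0606).

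Tnfrsf1a, the broadly expressed TNF receptor with a death domain, was at 78.1, 71.7, 94.6 and 63.2 CPM in QZ1-hi and 41.2, 42.9, 50.3 and 43.6 CPM in QZ1-lo. All QZ1-hi libraries were higher, by a smaller factor than for Fas, and library 3 was the highest of each group. The difference was 1.73-fold (log2 fold change 0.79 ± 0.14 SE, edgeR adjusted p = 0.00266), and with library size alone it was 0.35 and not called (adjusted p = 0.349).

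Tnfrsf21, a death domain receptor with no TNF family ligand assigned to it, moved down. It was at 33.2, 38.5, 31.6 and 46.4 CPM in QZ1-hi against 65.4, 57.7, 70.4 and 57.5 CPM in QZ1-lo. Every QZ1-lo library was higher, and the spread within each group was small beside the gap. Tnfrsf21 fell by 0.75 ± 0.14 SE on the log2 scale (edgeR adjusted p = 0.00437). Tnfrsf10b, the mouse TRAIL death receptor, held 15.3, 8.002, 9.13 and 8.04 CPM in QZ1-hi and 16.8, 11.5, 13.9 and 10.2 CPM in QZ1-lo. These overlapped through QZ1-hi library 1, and the log2 fold change of -0.37 ± 0.25 SE was not called (edgeR adjusted p = 0.376). Tnfrsf25, the receptor for Tnfsf15 on T cells, was under 1 CPM throughout.

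Of 14 TRAF-binding receptors tested, 2 were lower (14.3%, against 8.21% of all genes) and none higher. Tnfrsf9, which costimulates T cells and is also made by activated endothelium, was at 6.91, 2.32, 3.06 and 3.22 CPM in QZ1-hi and 16.4, 16.4, 9.99 and 13.2 CPM in QZ1-lo. QZ1-hi library 1 was the highest of its group yet below every QZ1-lo library. Tnfrsf9 fell by 1.84 ± 0.34 SE on the log2 scale (edgeR adjusted p = 0.00304), the lowest log2 fold change among called receptors. Its ligand Tnfsf9 was not called, as given above.

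Tnfrsf12a (Fn14), the TWEAK receptor, is known to be induced in injured epithelium and other tissues. It held 15.8, 17.4, 20.1 and 10.7 CPM in QZ1-hi and 41.2, 32.0, 43.4 and 24.7 CPM in QZ1-lo. Library 4 was the lowest and library 3 the highest of each group, and the groups did not overlap. Tnfrsf12a fell by 1.14 ± 0.22 SE on the log2 scale (edgeR adjusted p = 0.00472). Both receptors were lower in the same group as the airway epithelial markers. Alveolar markers, Epcam among them, were mixed, with 1 higher and 5 lower of 10. Ager and Hopx, type 1 cell markers in the paper, were called lower, at -0.76 and -0.52 on the log2 scale. Of its type 2 cell markers, Sftpc was called higher at 0.78, Sftpb was not called at 0.39, and Nkx2-1 was called lower at -0.90. The part of these cell types in the receptor levels was not tested.

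The TNF receptor without a death domain, Tnfrsf1b, held 68.8, 92.3, 67.7 and 119.6 CPM in QZ1-hi and 91.7, 98.4, 71.6 and 99.98 CPM in QZ1-lo. The groups overlapped fully, QZ1-hi library 4 was the highest, and that library also had the highest myeloid marker sum. Its log2 fold change was -0.05 ± 0.19 SE (edgeR adjusted p = 0.892). Ltbr, the lymphotoxin beta receptor, ran from 35.2 to 43.6 CPM in QZ1-hi and from 35.7 to 55.9 CPM in QZ1-lo, with a log2 fold change of -0.20 ± 0.15 SE (edgeR adjusted p = 0.435). Cd40, a receptor of B cells, macrophages and endothelium, was low, at 1.91 to 6.65 CPM in QZ1-hi and 0.507 to 2.89 CPM in QZ1-lo, and its log2 fold change of 1.20 ± 0.57 SE was not called (adjusted p = 0.192). The RANK receptor Tnfrsf11a, at -0.54 ± 0.30 SE (adjusted p = 0.278), and the T cell receptor Tnfrsf18 (GITR), at -0.79 ± 0.39 SE (adjusted p = 0.206), were not called either. Tnfrsf14 and Eda2r had log2 fold changes of 0.25 and 0.13, and Tnfrsf4, Tnfrsf8, Tnfrsf13b, Tnfrsf19 and Cd27 were at or under 3.91 CPM in every library.

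Of the decoy and orphan receptors, Tnfrsf23 was lower. It binds TRAIL without a working death domain and held 9.53, 8.30, 3.06 and 10.4 CPM in QZ1-hi and 17.9, 15.1, 16.6 and 15.9 CPM in QZ1-lo. The QZ1-lo libraries were tight and all higher, and QZ1-hi library 3 was the lowest. Tnfrsf23 fell by 1.06 ± 0.31 SE on the log2 scale (edgeR adjusted p = 0.0332), and the adjusted p was between 0.0589 and 0.0777 without QZ1-hi library 2 or any 1 QZ1-lo library. The neighbouring TRAIL decoy Tnfrsf22 shares sequence with it, 18.0% of the 50-base stretches of Tnfrsf23 occurring in Tnfrsf22, so reads could be split between them. Tnfrsf22 itself was at 0.983 to 3.99 CPM in QZ1-hi and 2.64 to 4.13 CPM in QZ1-lo and was not called (log2 fold change -0.40 ± 0.44 SE, edgeR adjusted p = 0.621). The soluble decoy Tnfrsf11b (osteoprotegerin), which binds RANKL and TRAIL, varied more within groups than between them, from 2.03 to 14.6 CPM in QZ1-hi and from 1.76 to 14.4 CPM in QZ1-lo. Library 1 of each group was its highest and library 4 its lowest. Tnfrsf26, an orphan, was at 0.21 ± 0.28 SE.

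The 7 members that were not tested were mostly lymphocyte genes. Tnfrsf17, the plasma cell receptor BCMA, had 0 reads in all 8 libraries, where 3 reads would be 0.0894 to 0.179 CPM. The CD40 ligand Cd40lg had 0, 0, 0 and 3 reads in QZ1-hi and 35, 11, 0 and 21 in QZ1-lo, and Tnfsf8 had 24 reads in QZ1-hi library 4 alone of its group and 17, 5, 0 and 23 in QZ1-lo. Lta, Cd70, Tnfrsf13c and Tnfsf18 had at most 18 reads in any library. Tnfsf13os was tested, at 0.80 ± 0.65 SE (edgeR adjusted p = 0.475), but lies on the opposite strand to Tnfsf13, and the strand setting used in counting was not given in the sources used here.

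Known ligand and receptor pairs were then set side by side. Of 27 pairs among the members, 18 had both genes tested and 4 had both called, and in 4 of those 4 the ligand and the receptor moved in opposite directions. Tnf was lower while Tnfrsf1a was higher, and Fasl was lower while Fas was higher. Tnfsf10 was higher while its decoy Tnfrsf23 was lower, and Tnfsf12 was higher while Tnfrsf12a was lower. Fasl passed the filter through QZ1-lo alone and lost its call in 6 of 15 alternatives, and Tnfrsf23 lost its call in 5 of 16. Tnfsf12 lost its call in 2 of 16, and Fas and Tnfrsf1a in 1 of 16 each, so fewer pairs have both genes called there. With scaling by library size alone, Fas, Tnfrsf1a and Tnfsf12 were all uncalled, and only the Tnfsf10 and Tnfrsf23 pair had both genes called. With the main scaling and an edgeR adjusted p under 0.01, only the Tnf and Tnfrsf1a pair had both genes called. The remaining tested pairs, without both genes called, went both ways. Ltb and Ltbr were both below 0, at -0.72 and -0.20. Tnfsf13 and Tnfrsf13b were both above 0, at 0.84 and 0.22. Tnfsf11 and Tnfrsf11a had opposite signs, at 1.44 and -0.54. Genes of a pair were measured in the same libraries, and the pairing of directions was not tested.

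**Figure D3:**
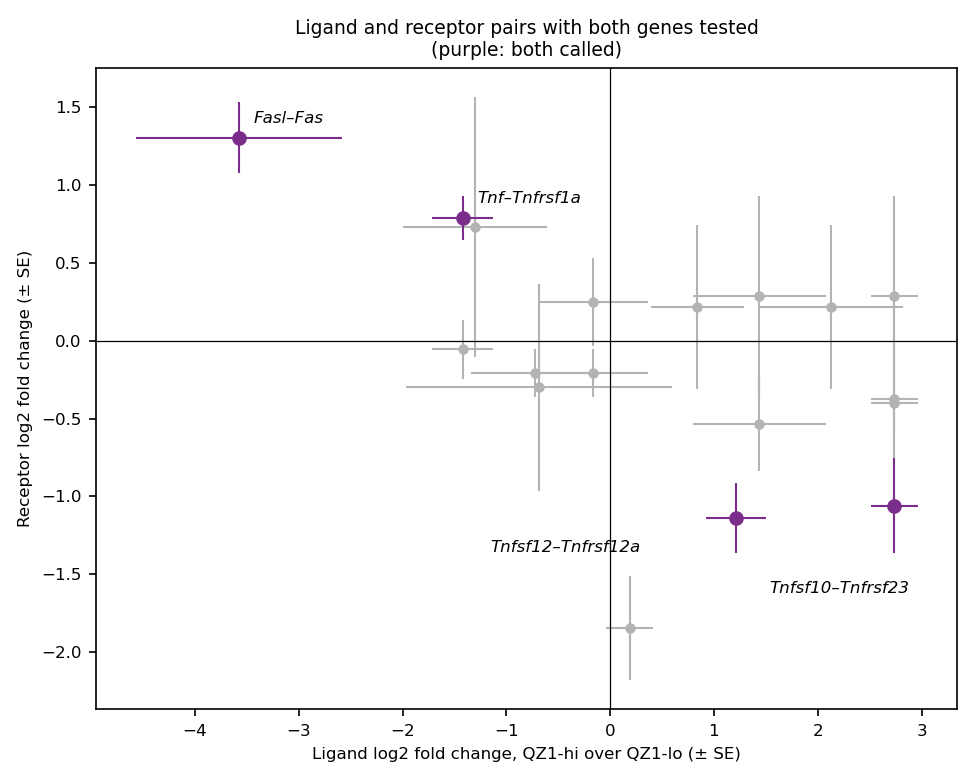
Log2 fold change, QZ1-hi over QZ1-lo, of ligands (horizontal axis) and of their receptors (vertical axis) for the 18 pairs with both genes tested, bars ± SE from 4 libraries a group. The 4 pairs with both genes called (purple) lie in the upper left and lower right, such as Tnfsf12 at 1.22 with Tnfrsf12a at -1.14.

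Levels of different genes were compared per kilobase of exon within a library. Tnfsf10 was 3.88 to 6.41 times Tnfrsf10b in QZ1-hi and 0.425 to 0.650 times in QZ1-lo. Against its decoy Tnfrsf23 it was 2.18 to 13.9 times in QZ1-hi and 0.291 to 0.350 times in QZ1-lo, the highest in QZ1-hi library 3. So in every QZ1-hi library the TRAIL transcript exceeded both receptors, and in every QZ1-lo library it was below both.

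By these counts Tnfsf12 was below Tnfrsf12a in every library, at 0.562 to 0.871 times in QZ1-hi and 0.0628 to 0.218 times in QZ1-lo. The read-through model Tnfsfm13 covers 48.3% of the exon bases of Tnfsf12. Reads lost to that model would make these ratios too low, so the order in QZ1-hi is uncertain. Among death receptors, Fas was 1.00 to 1.85 times Tnfrsf21 in QZ1-hi and 0.285 to 0.434 times in QZ1-lo. These ranges did not overlap. Tnfrsf1a was 0.778 to 2.06 times Tnfrsf1b in QZ1-hi and 0.642 to 1.04 times in QZ1-lo, ranges that did overlap, with QZ1-hi library 4 the lowest of its group.

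By mean CPM per exon kilobase the order in QZ1-hi began with Tnfrsf1a at 29.7 ± 5.14 (SD, n = 4), Tnfrsf1b at 22.8 ± 6.41, Ltbr at 16.1 ± 1.63 and Fas at 12.6 ± 2.18. Tnfsf9 followed at 10.5 ± 2.56, then Tnfrsf21 at 9.11 ± 1.63, Tnfsf10 at 8.70 ± 2.77 and Tnfrsf12a at 8.29 ± 2.04. Neighbours from Tnfsf9 down lay within 1 SD of each other, as did Tnfrsf1a and Tnfrsf1b by their summed spreads. In QZ1-lo the order began with Tnfrsf1b at 23.7 ± 3.42, Ltbr at 18.6 ± 3.78, Tnfrsf12a at 18.3 ± 4.47, Tnfrsf1a at 17.2 ± 1.55 and Tnfrsf21 at 15.3 ± 1.53. The middle 3 of those lay within 1 SD of each other. Fas was at 5.09 ± 1.62 and Tnfsf10 at 1.30 ± 0.117 there, so a ligand and a receptor near the top in QZ1-hi ranked far lower in QZ1-lo, and Tnfrsf12a far higher.

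Downstream of the receptors, 51 genes in 4 lists were followed, of which 50 were tested, and 3 were called higher and 6 lower. That is 18.0% of those tested, close to the 18.1% called among all genes, and their median log2 fold change was -0.26. Among 22 adaptors and kinases, Traf1 alone was called, a TRAF protein that NF-kB induces and that binds Tnfrsf9 and Tnfrsf1b. It held 8.43, 7.75, 6.36 and 6.14 CPM in QZ1-hi and 24.8, 32.2, 25.3 and 30.3 CPM in QZ1-lo, with every QZ1-lo library well above every QZ1-hi library. Traf1 fell by 1.97 ± 0.17 SE on the log2 scale (edgeR adjusted p = 0.000144).

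The adaptors of the death domain receptors were not called. Their log2 fold changes were -0.06 ± 0.22 SE for Tradd, 0.37 ± 0.25 SE for Fadd, 0.36 ± 0.13 SE for Ripk1 and 0.26 ± 0.12 SE for Casp8, with edgeR adjusted p of 0.892, 0.390, 0.0827 and 0.178. Of 9 cell death effectors Cflar was called, the caspase-8-like protein that blocks death receptor signaling. It held 81.2, 88.6, 100.3 and 88.4 CPM in QZ1-hi and 50.3, 55.8, 46.5 and 55.4 CPM in QZ1-lo. The groups were well apart, and Cflar rose by 0.79 ± 0.12 SE on the log2 scale (edgeR adjusted p = 0.000975). With library size alone it was 0.33 and not called (adjusted p = 0.335).

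Of 15 NF-kB subunits and inhibitors, 4 were lower (26.7%, against 8.21% of all genes) and none higher. Nfkb2 and Relb, the partners of the alternative NF-kB pathway, fell by 0.87 ± 0.11 SE and 0.94 ± 0.25 SE on the log2 scale (edgeR adjusted p = 0.000510 and 0.0249). The inhibitors Nfkbie and Tnfaip3 (A20), which NF-kB itself induces, fell by 0.53 ± 0.12 SE and 0.41 ± 0.13 SE (adjusted p = 0.00948 and 0.0479). The Tnfaip3 libraries overlapped, at 124 to 171 CPM against 165 to 197 CPM, and its call was lost in 8 of 16 alternatives, 7 of them leaving out a library (every one but QZ1-hi library 4), with adjusted p of 0.0506 to 0.124. Relb was not called without QZ1-hi library 4 or without QZ1-lo library 2 (adjusted p = 0.0703 and 0.0741). For Nfkb2 the QZ1-hi libraries ran from 34.3 to 39.1 CPM and the QZ1-lo libraries from 62.8 to 74.9 CPM, without overlap.

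The endothelial adhesion molecules that TNF can induce did not move together. Vcam1 was at 29.8, 26.9, 35.6 and 31.2 CPM in QZ1-hi and 6.77, 13.2, 9.84 and 9.13 CPM in QZ1-lo, and rose by 1.66 ± 0.20 SE on the log2 scale (edgeR adjusted p = 0.000423). Selp, the P-selectin of endothelium and platelets, rose by 3.22 ± 0.57 SE (adjusted p = 0.00251), from 0.407 to 0.941 CPM in QZ1-lo to 1.88 to 9.36 CPM in QZ1-hi. Icam1, which epithelium also makes, ran from 181 to 299 CPM in QZ1-hi and from 435 to 571 CPM in QZ1-lo, and fell by 1.03 ± 0.16 SE on that scale (adjusted p = 0.00141). Between groups, Vcam1 and Selp were higher where endothelial marker RNA was higher, and Icam1 where airway epithelial marker RNA was higher. Within QZ1-lo, library 1 had the most Icam1 at 571 CPM and the lowest airway marker sum at 1322 CPM. Alveolar markers were also lower in QZ1-hi for 5 of 10, the type 1 markers Ager and Hopx among them, with 1 higher. The QZ1-hi libraries also had 4 of 5 tested platelet and mast cell markers called higher. That list summed to 52.4 to 109 CPM against 8.82 to 24.5 CPM in QZ1-lo. Kit made up most of its QZ1-hi sum, at 35.1 to 76.7 CPM, and the mast cell genes Cpa3 and Mcpt4 had too few reads to test. In QZ1-hi 4 of 4 mesothelial markers were called higher too, summing to 38.4 to 268 CPM against 5.93 to 36.5 CPM. The part of the cell types in these values was not tested. Of 4 tested superfamily genes outside the naming rule, none was called.

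**Figure D4:**
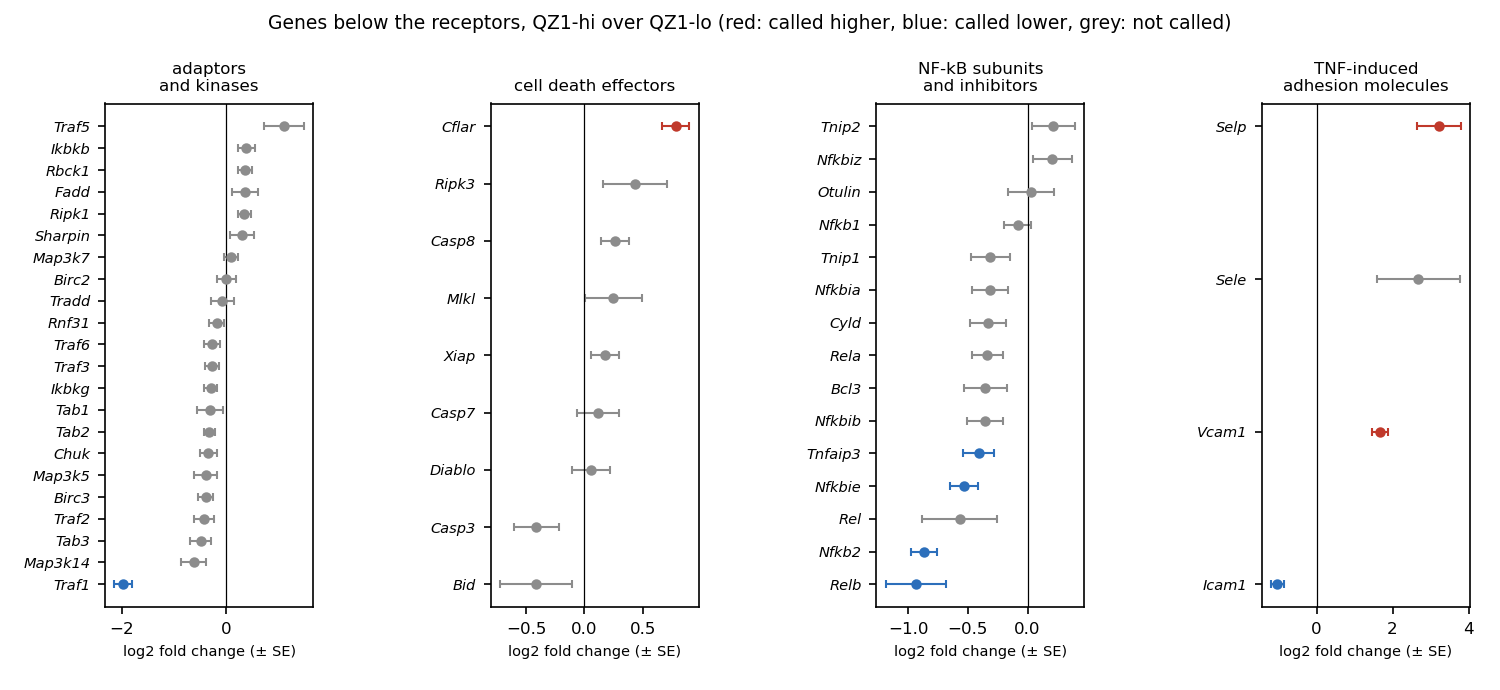
Log2 fold change, QZ1-hi over QZ1-lo (horizontal axes, scales differ), of the tested genes of 4 signaling lists, points from edgeR with 4 libraries a group and bars ± SE. Called genes are Traf1 at -1.97, Cflar at 0.79, 4 NF-kB genes between -0.94 and -0.41, and Selp, Vcam1 and Icam1.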

How the data were processed

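Bulk total RNA libraries (SMARTer Stranded Total RNA kit) were sequenced for 4 QZ1-hi and 4 QZ1-lo samples. The authors deposited whole-number read counts per Entrez gene, made with Rsubread on mm10, and the submitters' processing notes also name DESeq2. The aligner settings, the annotation and the strand setting are not given in the sources used here. Of 27179 identifiers, 25293 matched a symbol and 1886 did not. Counts were filtered with filterByExpr (minimum count 10, minimum total 15), leaving 15583 genes, scaled by TMM and tested with edgeR 4.0.16 quasi-likelihood F tests (two-sided) in R 4.3.3 across all 8 libraries, with Benjamini-Hochberg adjustment over all genes tested. Standard errors were taken as |log2 fold change|/√F. The code was tested on simulated data. Depth is the total count per library, and 3 counts equal 0.0894 to 0.179 CPM. CPM per exon kilobase used GENCODE M21 exons. All p-values measure the spread between these libraries. Genes called, partners of called members, Tradd, Fadd, Ripk1 and Casp8 were named by rule. Tnfsfm13, Camta1, Csf3r, S100a8, S100a9, Lyz2, Kit, Cpa3, Mcpt4, Sftpc, Sftpb, Hopx, Ager, Rtkn2 and Nkx2-1 were singled out later, with values in view. The members and lists were chosen with earlier results of these data known. Alternatives used DESeq2 1.42.0, limma 3.58.1, other scalings and filters, and leaving out each library.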

Additional observations from a re-analysis of the deposited data

Results flagged for a closer look

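In 4 of 72 groups of 4 libraries examined, 1 for each tested member and sort, a single library stood apart by Dixon's ratio (above its 95% critical value). Chance gives this in about 1 in 20 groups. Cd27, a lymphocyte costimulatory receptor, was at 2.57 CPM in QZ1-hi library 2, with the others of its group at 0.694 to 0.763 CPM. Tnfrsf10b, the TRAIL death receptor, was at 15.3 CPM in QZ1-hi library 1, with the others at 8.002 to 9.13 CPM. Tnfsf12 was at 2.13 CPM in QZ1-lo library 3, with the others at 4.22 to 4.39 CPM. Tnfsf4, the OX40 ligand, was at 0 in QZ1-lo library 3, with the others at 0.570 to 0.626 CPM.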

How the results depend on the processing

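Under 16 alternatives, 5 of the 10 called members (Tnfsf10, Tnfrsf9, Tnf, Tnfrsf12a, Tnfrsf21) kept their call and direction, and no called member changed direction. Scaling by library size alone gave 1 superfamily gene higher in place of 4, and 21 signaling genes lower in place of 6. Those 21 and 6, with the counts that follow, are over 5 lists, 4 below the receptors and 1 of superfamily genes outside the naming rule. DESeq2 and limma each gave 5 signaling genes higher in place of 3. Leaving out 1 library at a time gave 3 to 5 superfamily genes higher, 4 to 7 lower, 3 to 4 signaling genes higher and 4 to 6 lower. At a stricter edgeR adjusted p, under 0.01, 3 superfamily genes were higher (Fas, Tnfrsf1a, Tnfsf10). At that threshold 4 were lower (Tnf, Tnfrsf12a, Tnfrsf21, Tnfrsf9), and Tnfsf12, Fasl and Tnfrsf23 were not called. Removing mitochondrial and ribosomal RNA, chosen after seeing the data, gave 4 higher and 6 lower among the superfamily. Tnfsf12 was not called by library size alone (log2 fold change 0.79). Fasl was not called without the filter (adjusted p = 0.0612) and could not be tested with at least 10 counts in every library. Direction changed for uncalled genes. By library size alone the log2 fold changes were -0.26 for Eda2r, -0.31 for Tnfrsf13b, -0.22 for Tnfrsf14, -0.11 for Tnfrsf11b, -0.32 for Tnfrsf26, -0.24 for Tnfsf9, -0.072 for Fadd, -0.11 for Ripk1 and -0.20 for Casp8. Leaving out 1 library at a time moved the log2 fold change of 8 uncalled genes across 0, with ranges of -0.056 to 0.30 for Eda2r, -0.0014 to 0.44 for Tnfrsf13b, -0.22 to 0.045 for Tnfrsf1b, -0.64 to 0.46 for Tnfrsf4, -0.25 to 1.14 for Tnfrsf11b, -0.052 to 0.31 for Tnfrsf26, -0.45 to 0.027 for Tnfsf14 and -0.16 to 0.041 for Tradd. The cause was not tested. No paired analysis was possible because the labels give no shared replicate number, mouse or sort day. Libraries are numbered in accession order, and although several values ranked alike by that number in both groups, such as Tnfrsf11b and the myeloid marker sums in libraries 4, no pairing was inferred from it. Depth limits the lymphocyte ligands, where 3 reads equal 0.0894 to 0.179 CPM.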
